A study of Cavia porcellus with 35 samples.

Results

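Axon guidance ligands and receptors were followed in prefrontal cortex punches of juvenile guinea pigs whose mothers, grandmothers or great-grandmothers had received a synthetic glucocorticoid (sGC) in pregnancy. Members were all genes whose symbols begin with SEMA, PLXN, EPHA, EPHB, EFNA, EFNB, NTN or UNC5, or are SLIT1, SLIT2, SLIT3, ROBO1, ROBO2 or ROBO3. Of the 12100 symbols listed in any of the 4 count tables, 61 met this rule. UNC50 met it by its letters alone, is no netrin receptor and was left out of the counts, which leaves 60 genes, 57 of them listed in all 4 tables. Its log2 fold changes lay between -0.13 and -0.02 and none passed the test.

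The F1 females and F1 males were born to guinea pig dams given courses of betamethasone, an sGC, or saline in late pregnancy. The F2 and F3 females descend from such dams through the male line, in which F1 and F2 males were mated with females from outside the experiment. Only the F1 animals were thus themselves exposed before birth. RNA was sequenced from 4 control and 4 sGC females in each of the F1, F2 and F3 generations and from 5 control and 6 sGC F1 males, all killed on postnatal day 40, with 1 library from each of the 35 animals. The animals were a subset chosen for the amount and quality of their RNA, and no litter gave more than 1 animal to a group of females. The 24 female libraries held 12.8 to 19.6 M reads assigned to genes and the 11 male libraries 25.7 to 31.8 M (M, 1e+06 reads).

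Guidance molecules steer growing axons by attraction or repulsion, and in the juvenile and adult cortex many of them stay expressed and act on dendritic spines, synapses and myelinating glia. Netrins are secreted or matrix-bound ligands that attract axons through DCC and repel them through the UNC5 receptors, while the related netrin-Gs are tethered to the membrane. Slits are secreted repellents of Robo receptors. Ephrins are held on the membrane, the A class by a lipid anchor and the B class by a transmembrane segment, and signal to Eph receptor tyrosine kinases on the neighbouring cell. Semaphorins, secreted or membrane-bound, act through plexins, and the secreted class 3 mostly needs a neuropilin as co-receptor.

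The tissue was checked against marker genes before the guidance genes were read. The source name of the libraries is prefrontal cortex, while the extraction text attached to them names the paraventricular nucleus as the punched region. Of 5 markers of the paraventricular hypothalamus 3 were listed (SIM1, OXT and AVP), with summed levels of 6.58 to 17.9 CPM (counts per 1e+06 assigned reads) in every library, and OTP and TRH were not listed. Of 8 markers of cortical glutamatergic neurons 6 were listed, and their sum was 1743 CPM or more in every library. Marker sums also differed between control and sGC animals. In F1 females, 8 listed markers of striatal projection neurons (of 9) summed to 594 to 2710 CPM in controls and 249 to 628 CPM in sGC animals, and the cortical glutamatergic sum was 1743 to 3079 CPM against 3072 to 6429 CPM. The 10 listed mature oligodendrocyte markers (of 12) summed to 3655 to 6934 CPM in control and 7792 to 13325 CPM in sGC F1 males, and to 3377 to 5221 CPM in control and 4995 to 11767 CPM in sGC F2 females. In F1 females they lay the other way, at 4817 to 16302 CPM in control and 3791 to 7671 CPM in sGC animals, with 0 of 10 positive and a median log2 fold change of -0.72, and none of the 10 passed the test. The median was 1.02 in F2 females and 0.95 in F1 males, and in F3 females 9 listed markers had a median of 0.34. Other glial markers of F1 females were lower as well. Of 5 microglia markers tested 4 fell, with sums of 235 to 284 CPM in controls and 175 to 197 CPM in sGC animals, 3 of 7 astrocyte markers fell, and 4 of 4 oligodendrocyte precursor markers were negative without passing. Neuron markers differed in other tables too. In F2 females the upper cortical layer sum was 398 to 543 CPM in controls and 239 to 390 CPM in sGC animals, while deep layer markers had a median log2 fold change of 0.51. In F1 males the cortical glutamatergic sum was 3789 to 4525 CPM in controls and 3334 to 3809 CPM in sGC animals, and 2 of 6 interneuron markers fell. In bulk tissue, fewer cells of a type and less RNA in each cell cannot be told apart. Which part these differences in tissue make-up had in the values of the guidance genes was not tested.

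**Figure D1:**
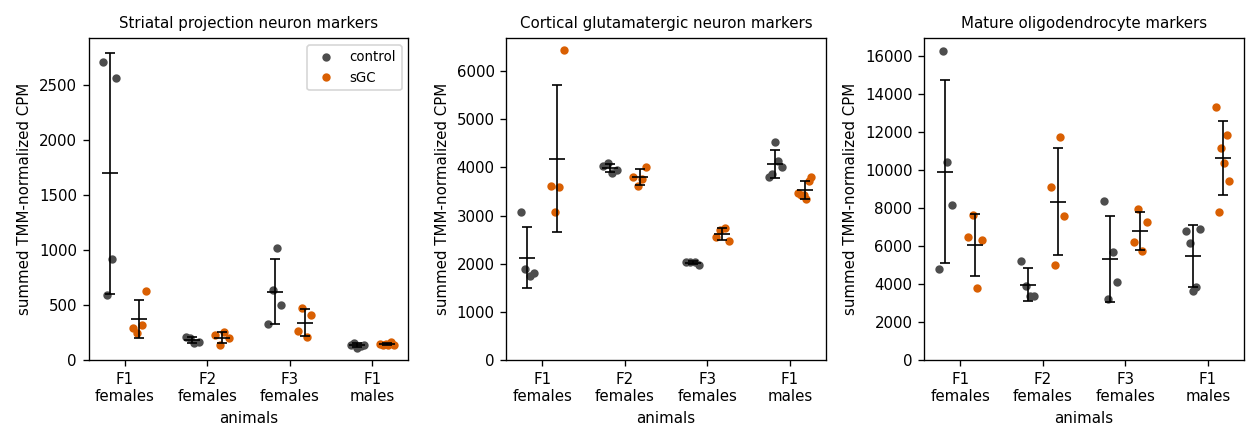
Summed TMM-normalized CPM of the listed markers of striatal projection neurons, cortical glutamatergic neurons and mature oligodendrocytes in each animal (points), with the mean and SD of each group, on linear axes from 0; the tables were normalized separately. Control F1 females spread from 594 to 2710 CPM for the striatal markers, and sGC F1 males lie at 7792 CPM or more for the oligodendrocyte markers, above all control males.

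The question was which of these genes differed between sGC and control animals within each generation and sex, by the quasi-likelihood test of edgeR with the p-value adjusted over all genes of a table (FDR). In F1 females, 59 guidance genes were tested and 10 differed, 5 higher and 5 lower in sGC animals. These 16.9% stood beside 16.5% of all genes tested, of which 9.21% were higher and 7.33% lower. At an unadjusted p under 0.05 there were 28 (47.5%), beside 34.2%. In F2 females none of 58 passed, beside 0.278% of all genes (0.153% higher and 0.126% lower). At an unadjusted p under 0.05 there were 20 (34.5%), against 16.1% of all genes. Both the likelihood ratio test of edgeR and DESeq2 called 8, given here without a share of all genes. In F3 females 5 of 58 (8.62%) differed, 2 higher and 3 lower, beside 1.34% of all genes (1.07% higher and 0.271% lower), and 23 (39.7%) had an unadjusted p under 0.05, beside 17.3%. In F1 males 10 of 58 (17.2%) differed, 5 higher and 5 lower, beside 9.22% of all genes (5.74% higher and 3.48% lower), and 24 (41.4%) had an unadjusted p under 0.05, beside 25.2%.

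In total 24 guidance genes passed the quasi-likelihood test, to which "passed" refers throughout, in at least 1 table, and only EFNB3 passed in 2 of them, F3 females and F1 males. The like counts over all genes were not made. Of genes of any kind 1864 passed in F1 females, 31 in F2 females, 153 in F3 females and 1062 in F1 males. Whether the small overlap is a trait of guidance genes was therefore not tested. The likelihood ratio test and DESeq2 both called further genes. No share of all genes called by these tests stands beside them, so they are not a result about guidance genes as a group. These were EPHB2, NTN3, PLXNA4, PLXNB3 and UNC5B in F1 females, EFNA5, PLXNA1, PLXNB3, PLXNC1, SEMA5A, SEMA5B, SLIT2 and SLIT3 in F2 females, EPHA5, EPHA8, ROBO1, ROBO3 and SEMA3F in F3 females, and EPHA5, EPHA7, PLXNB1, SLIT2 and SLIT3 in F1 males. DESeq2 alone added PLXNA1 and UNC5C in F1 females and EPHB6 in F3 females, and the likelihood ratio test alone PLXNC1 in F1 males. The sGC animals lay wholly beyond the control animals for 12 genes in F1 females (20.3%, beside 23.2% of all genes), for 7 in F2 females (12.1%, beside 8.09%), for 11 in F3 females (19%, beside 10.3%) and for 6 in F1 males (10.3%, beside 6.26%). SEMA3B was listed with 3 to 11 reads in F3 females and with 2 to 30 reads in F1 males, did not pass the filter on low counts in either and was not tested. SEMA6C was listed for F1 and F3 females only, and EPHB2 was listed in every table but that of F3 females.

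**Figure D2:**
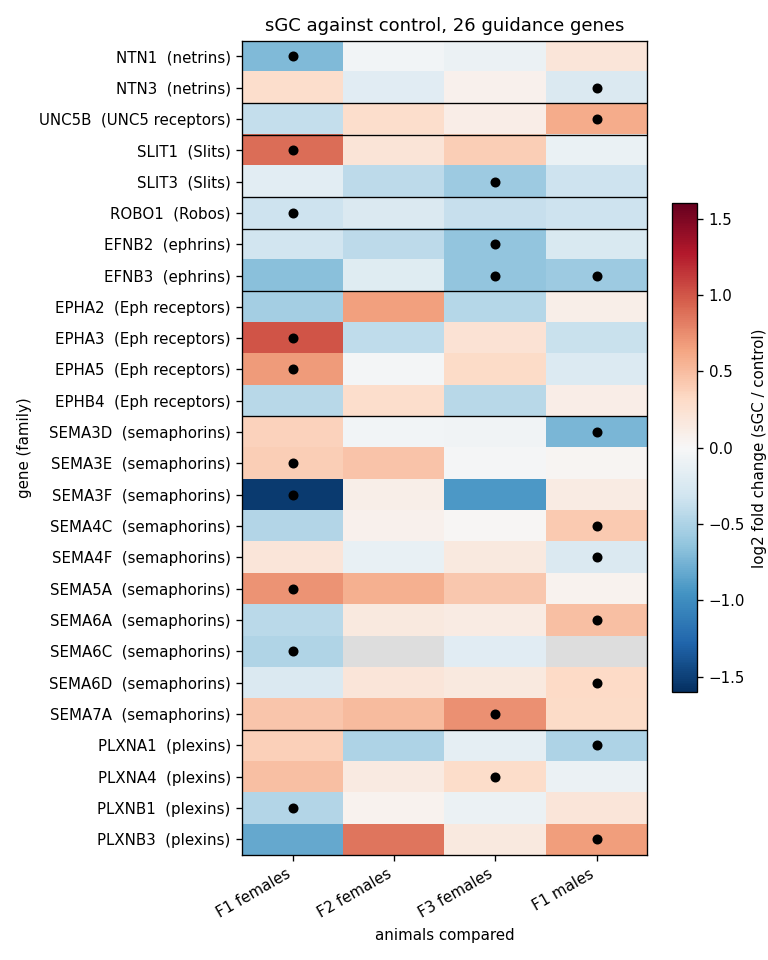
Log2 fold change of sGC against control animals (colour, red higher and blue lower in sGC) for 26 guidance genes, with 1 column for each table. The genes passed within at least 1 table or were among the 15 of smallest p that passed in a comparison of tables, so EPHA7 is not shown. Grey marks a gene that is not listed and a black dot an FDR under 0.05 by the quasi-likelihood test. Each column but that of F2 females holds dots, and EFNB3 is the only row with 2.

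Among the netrins, NTN1 fell in F1 females and NTN3 fell in F1 males. NTN1, the founding secreted netrin, stood at 30.3, 29.1, 31.1 and 30.2 CPM in the 4 control F1 females and at 17.8, 17.6, 21.5 and 17.2 CPM in the 4 sGC F1 females. The controls lay close together and every sGC female lay well below them (log2 fold change -0.70, SE 0.08, FDR 0.0039). The animals overlapped in the other tables, with log2 fold changes of -0.04 in F2 females, -0.09 in F3 females and 0.19 in F1 males. NTN3, a netrin with the same receptors, stood at 103, 100.4, 99.8, 98.6 and 97.9 CPM in control F1 males, and in sGC F1 males at 80.6 at the lowest, 84.2 at the median and 94.6 at the highest. No sGC male reached the lowest control (-0.23, SE 0.04, FDR 0.0067). In F1 females NTN3 pointed the other way, at 96.6, 78.0, 87.7 and 91.1 CPM in controls and 101, 103, 123 and 103 CPM in sGC animals, and just missed the threshold (0.28, SE 0.09, FDR 0.0538). NTN4, NTN5 and the netrin-Gs NTNG1 and NTNG2 passed in no table.

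Of the 4 UNC5 receptors, UNC5B rose in F1 males and the others passed in no table. UNC5B, a repulsive netrin receptor, stood at 47.1, 62.8, 44.0, 52.8 and 66.9 CPM in control F1 males. In sGC F1 males it was 67.4 CPM at the lowest, 82.0 at the median and 98.4 at the highest, above every control though only just (0.60, SE 0.13, FDR 0.0126). In F1 females its level was 52.3, 72.8, 62.8 and 61.9 CPM in controls and 45.8, 54.6, 39.0 and 52.6 CPM in sGC animals. Those ranges overlapped and the value was negative (-0.38, FDR 0.0721). In F2 and F3 females its log2 fold changes were 0.28 and 0.10. All 4 receptors had a positive log2 fold change in F3 females, with a median of 0.22 and 3 at an unadjusted p under 0.05, beside 48.2% of all genes positive and 9.2% higher at that p.

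Among the Slits, SLIT1 rose in F1 females and SLIT3 fell in F3 females. SLIT1, the family member most restricted to the nervous system, stood at 83.6, 97.2, 85.3 and 79.8 CPM in control F1 females and at 180.1, 215, 101 and 149 CPM in sGC F1 females. The lowest sGC female lay just above the highest control, and the sGC animals spread more widely than the controls (0.90, SE 0.20, FDR 0.0207). SLIT3 stood at 75.3, 79.7, 81.1 and 82.9 CPM in control F3 females and at 59.0, 57.2, 45.1 and 52.4 CPM in sGC F3 females. All sGC females of that generation lay below all controls (-0.58, SE 0.08, FDR 0.0177). The same was so of the F2 females, at 93.3, 99.7, 98.7 and 85.0 CPM in controls against 73.4, 65.3, 61.0 and 81.5 CPM, without passing the threshold (-0.42, SE 0.09, FDR 0.0585). In F1 males the SLIT3 value was -0.33 (FDR 0.0848) and in F1 females -0.17 (FDR 0.533). SLIT2, named here after its values were seen, narrowly missed the threshold in F2 females, at 59.2, 43.7, 68.4 and 49.9 CPM in controls and 30.2, 41.6, 31.9 and 29.4 CPM in sGC animals (-0.73, FDR 0.0517).

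Both listed Robos, ROBO1 and ROBO3, had negative log2 fold changes in all 4 tables, and ROBO1 passed in F1 females. ROBO1, a main Slit receptor of cortical axons, stood at 83.2, 68.5, 81.0 and 84.8 CPM in control F1 females and at 64.6, 64.4, 66.1 and 56.8 CPM in sGC F1 females. The highest sGC female lay close under the lowest control (-0.33, SE 0.08, FDR 0.0273). Its log2 fold changes were -0.23 in F2 females (FDR 0.137), -0.36 in F3 females (FDR 0.0988) and -0.33 in F1 males (FDR 0.139), each with an unadjusted p under 0.05. ROBO3, a receptor known for its part in the crossing of the midline by commissural axons, is given here after its values were seen. In F3 females it stood at 3.80, 9.91, 5.53 and 8.01 CPM in controls and 2.28, 3.61, 2.63 and 2.19 CPM in sGC animals. The groups did not overlap there, and the test missed the threshold at these low counts (-1.33, SE 0.30, FDR 0.0663).

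Of the 5 listed ephrins, both members called belong to the transmembrane B class, and both were lower in sGC animals. EFNB3, a ligand of EphB receptors and EphA4, stood at 103, 98.3, 109 and 98.3 CPM in control F3 females and at 80.8, 60.3, 61.6 and 60.9 CPM in sGC F3 females. All sGC F3 females lay below all controls, with 3 of them close together and sGC animal 1 higher (-0.63, SE 0.10, FDR 0.0208). In F1 males EFNB3 was 61.5, 43.5, 60.6, 64.8 and 43.4 CPM in controls, and in sGC animals 29.5 at the lowest, 36.1 at the median and 47.7 at the highest. The highest sGC male overlapped the 2 lowest controls, and the difference passed the test (-0.58, SE 0.14, FDR 0.0181). In F1 females the value was of like size but did not pass, with 103, 74.6, 88.8 and 101 CPM in controls and 62.3, 89.8, 31.4 and 47.7 CPM in sGC animals (-0.67, SE 0.27, FDR 0.121).

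EFNB2, the ligand of EphB4 in vessels and of other EphB receptors in neurons, stood at 36.8, 46.5, 45.2 and 41.3 CPM in control F3 females and at 33.0, 26.6, 26.8 and 23.1 CPM in sGC F3 females. The groups did not overlap (-0.63, SE 0.11, FDR 0.0351). In the other tables EFNB2 had log2 fold changes of -0.30, -0.42 and -0.25 (F1 females, F2 females and F1 males) and passed in none. All 5 ephrins had negative log2 fold changes in F2 females (median -0.20) and in F3 females (median -0.14), where 52.1% and 48.2% of all genes were positive.

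Among the Eph receptors, EPHA3 and EPHA5 rose in F1 females and no other member passed the quasi-likelihood test within a table. EPHA5, a receptor of A-class ephrins that is abundant in the forebrain, stood at 151, 117, 115 and 123 CPM in control F1 females and at 199, 197, 195 and 223 CPM in sGC F1 females. Every sGC female lay far above every control (0.69, SE 0.09, FDR 0.0043). In F3 females, too, no sGC animal reached down to a control, at 193, 173, 207 and 190.3 CPM against 169.7, 145, 162 and 143 CPM, but the test did not pass (0.30, SE 0.08, FDR 0.0792). In F1 males the EPHA5 value was negative (-0.21, FDR 0.0635) and in F2 females -0.03. EPHA3, a receptor of the same class, was scarcer, at 4.79, 4.15, 3.14 and 3.35 CPM in control F1 females and 8.27, 7.30, 5.40 and 10.2 CPM in sGC F1 females. The groups did not overlap, on counts of 47 to 145 reads a library (1.01, SE 0.22, FDR 0.0194). Of the 12 Eph receptors tested in F1 females 10 had a positive log2 fold change, as did 45.5% of all genes, and their median was 0.24, beside -0.03 over all genes. EPHB2 in F1 females (0.58, FDR 0.0574), EPHA8 in F3 females (0.44, FDR 0.0550) and EPHA7 in F1 males (-0.27, FDR 0.0688) missed the threshold of that test, while the likelihood ratio test (FDR 0.0190, 0.0014 and 0.0374) and DESeq2 (0.0122, 0.0017 and 0.0329) called them.

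Of the 18 semaphorins tested in F1 females 2 rose and 2 fell. SEMA3F, a secreted repellent that acts through neuropilin 2, had the largest absolute log2 fold change of any guidance gene in that table. It stood at 43.3, 16.3, 20.5 and 31.7 CPM in control F1 females and at 6.51, 9.85, 9.62 and 13.0 CPM in sGC F1 females. All sGC females lay below all controls, and control animals 1 and 4 stood highest (-1.53, SE 0.32, FDR 0.0175). Those same animals had the highest striatal marker sums, 2710 and 2569 CPM. Without both of them, a setting added after the data were seen, the SEMA3F value was -0.90 (FDR 0.0471). Leaving out the controls highest in SEMA3F lowers the difference whatever its cause, and the part of the striatal markers was not tested. In F3 females the SEMA3F groups did not overlap either, at 11.5, 17.0, 21.6 and 15.4 CPM in controls and 8.84, 10.7, 5.89 and 8.92 CPM in sGC animals (-0.92, SE 0.21, FDR 0.0688). In F2 females and F1 males it was scarce and its log2 fold changes were 0.09 and 0.13.

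SEMA6C, a transmembrane semaphorin, stood at 18.2, 19.0, 18.5 and 17.9 CPM in control F1 females and at 11.5, 13.4, 14.5 and 13.3 CPM in sGC F1 females. The controls were nearly equal and all sGC females lay below them (-0.48, SE 0.08, FDR 0.0098). SEMA3E, a secreted semaphorin that binds plexin D1 without a neuropilin, was 15.4, 18.5, 18.2 and 16.5 CPM in controls and 25.6, 22.4, 21.9 and 20.02 CPM in sGC F1 females. No sGC female overlapped a control (0.39, SE 0.10, FDR 0.0276). SEMA5A, a transmembrane semaphorin with thrombospondin repeats, was 84.4, 111, 92.4 and 81.4 CPM in controls and 168, 199.8, 99.9 and 140.3 CPM in sGC F1 females. Here sGC animal 3 lay among the controls and the other 3 lay above them (0.72, SE 0.20, FDR 0.0388). SEMA5A was positive in all 4 tables, at 0.56 in F2 females, 0.43 in F3 females and 0.05 in F1 males.

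In F3 females the semaphorin called was SEMA7A, which is held on the membrane by a lipid anchor and signals through plexin C1 and integrins. It stood at 117, 108, 123 and 118 CPM in control F3 females and at 161, 202, 168 and 243 CPM in sGC F3 females. The controls lay close together and all sGC females lay above them (0.73, SE 0.12, FDR 0.0256). Its log2 fold changes were also positive in F1 females (0.44), F2 females (0.51) and F1 males (0.30), where the animals overlapped and no test passed. PLXNC1, the receptor of SEMA7A, is given here after its values were seen. It was negative in all 4 tables, at -0.38, -0.55, -0.62 and -0.64 in F1, F2 and F3 females and F1 males, each with an unadjusted p under 0.05 (0.04, 0.00546, 0.0176 and 0.00797), and it passed the quasi-likelihood test in none. Other tests called PLXNC1 in F2 females (FDR 0.0267 by the likelihood ratio test, 0.0224 by DESeq2) and in F1 males (0.0230 by the likelihood ratio test, 0.0418 in a single fit of all 8 groups and 0.0498 with a replicate block).

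In F1 males 3 semaphorins rose and 2 fell. SEMA6A, a transmembrane ligand of plexins A2 and A4, stood at 55.2, 60.0, 57.2, 52.3 and 63.3 CPM in control males and in sGC males at 71.9 at the lowest, 79.1 at the median and 96.2 at the highest. Every sGC male lay above every control (0.48, SE 0.07, FDR 0.0034). SEMA6D, a ligand of plexin A1, was 149.9, 176, 155, 169.9 and 176 CPM in control males and 187 at the lowest, 210.4 at the median and 216 at the highest in sGC males. These groups did not overlap either (0.32, SE 0.05, FDR 0.0045). SEMA4C, a transmembrane ligand of plexin B2, was 32.6, 40.2, 39.6, 31.9 and 42.3 CPM in control males and 44.0, 49.2 and 56.9 CPM at the lowest, median and highest of the sGC males. All sGC males lay above the controls (0.42, SE 0.09, FDR 0.0147).

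The 2 semaphorins that fell in F1 males were SEMA4F and SEMA3D. SEMA4F, another transmembrane semaphorin, stood at 36.1, 33.2, 32.3, 32.1 and 31.7 CPM in control males and at 25.7, 27.7 and 30.7 CPM at the lowest, median and highest of the sGC males. The sGC males lay below the controls with a small gap (-0.23, SE 0.06, FDR 0.0229). SEMA3D, a secreted semaphorin, was 12.3, 10.6, 16.3, 11.8 and 7.34 CPM in control males and 4.70, 7.06 and 9.05 CPM at the lowest, median and highest of the sGC males. Control animal 5 lay within the sGC range and the others above it (-0.73, SE 0.20, FDR 0.0404).

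Plexins, the semaphorin receptors, held 1 call in F1 females, 1 in F3 females and 2 in F1 males among 9 tested in each. PLXNB1, a receptor of class 4 semaphorins, stood at 179.7, 181, 163 and 159.5 CPM in control F1 females and at 116, 117, 128 and 133 CPM in sGC F1 females. All sGC females lay below all controls (-0.47, SE 0.07, FDR 0.0055). PLXNA4, which serves both class 3 and class 6 semaphorins, was 103, 103, 103 and 104 CPM in control F3 females and 123, 127, 126 and 129 CPM in sGC F3 females. Both groups were narrow and lay apart (0.29, SE 0.04, FDR 0.0167).

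PLXNB3, a receptor of SEMA5A, rose in F1 males, from 23.7, 24.1, 18.02, 17.5 and 30.6 CPM in controls to 26.4, 36.8 and 43.4 CPM at the lowest, median and highest of the sGC animals. Only sGC animal 2 overlapped the controls (0.67, SE 0.15, FDR 0.0135). In F2 females PLXNB3 had the smallest p of the guidance genes, at 20.2, 14.2, 13.5 and 15.5 CPM in controls and 33.7, 21.7, 29.4 and 29.6 CPM in sGC animals. Those groups lay apart and the test missed the threshold by little (0.86, SE 0.15, FDR 0.0506). In F1 females the value was negative (-0.82, SE 0.28, FDR 0.0783). PLXNA1, a co-receptor with neuropilins, was 109, 112, 192, 151 and 119 CPM in control F1 males and 82.1, 93.9 and 114 CPM at the lowest, median and highest of the sGC males. The control males spread widely and the groups overlapped (-0.49, SE 0.14, FDR 0.0410).

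**Figure D3:**
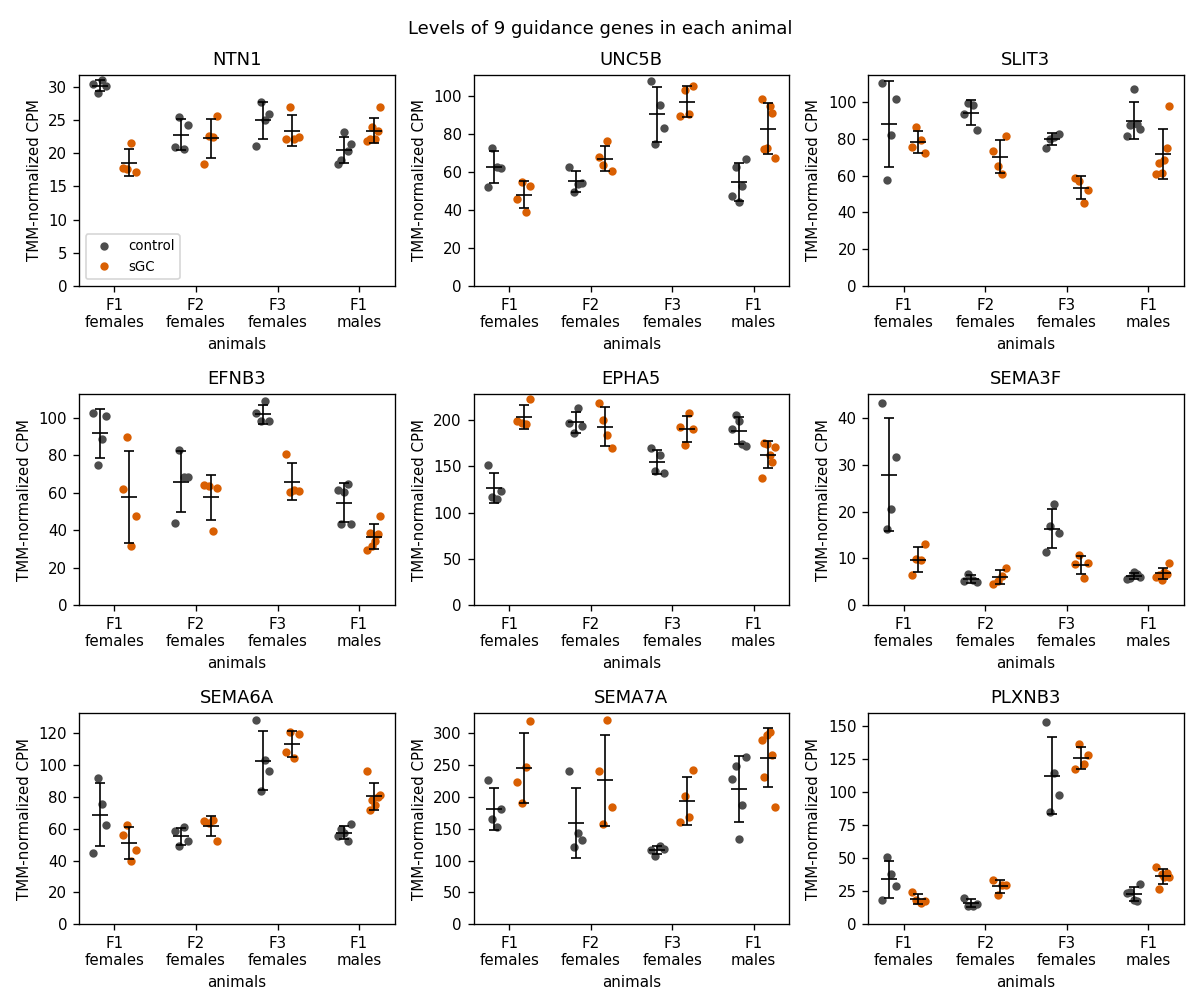
TMM-normalized CPM of 9 guidance genes in each animal (points), with the mean and SD of each group as bars, on linear axes from 0, for control (grey) and sGC (orange) animals of the 4 tables, which were normalized separately. NTN1 and EPHA5 separate control from sGC animals in F1 females, SLIT3, EFNB3 and SEMA7A do so in F3 females, and UNC5B and SEMA6A in F1 males.

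Not all of these calls were held when 1 animal was left out. In F1 females NTN1, EPHA5, PLXNB1 and SEMA6C passed in all 8 such fits. SEMA3F passed in 7 of 8 and not without sGC animal 1 (FDR 0.0518). EPHA3 and SLIT1 passed in 5, and not without control animals 3 or 4 or sGC animal 1 (FDR up to 0.0601 for EPHA3 and 0.0596 for SLIT1). SEMA3E passed in 4, and not without control animals 3 or 4 or sGC animals 1 or 3 (up to 0.0686). ROBO1 passed in 3, and not without control animals 1, 3 or 4 or sGC animals 1 or 4 (up to 0.0910), and SEMA5A in 2, those without control animal 2 or sGC animal 3 (otherwise up to 0.0974). With control animals 1 and 4, the highest in striatal markers, both left out, a setting added after the data were seen, 14 guidance genes were called in F1 females. That count is given without a share of all genes. NTN1, EPHA5, PLXNB1, SEMA6C, SEMA3F and EPHA3 were among the 14, and ROBO1, SEMA3E, SEMA5A and SLIT1 were not. SEMA3F, in which the animals left out were the highest controls, went from -1.53 to -0.90, while PLXNB3 stood at -1.19 and EPHA3 at 1.12. Of the calls lost, SLIT1 was 0.84 (FDR 0.0747), SEMA5A 0.60 (FDR 0.141), SEMA3E 0.32 (FDR 0.0955) and ROBO1 -0.22 (FDR 0.149).

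In F3 females none of the 5 calls was held in all 8 fits. PLXNA4 passed in 5 and was lost without control animals 2 or 4 or sGC animal 2 (FDR up to 0.0748). SLIT3 passed in 5 and was lost without control animals 2 or 4 or sGC animal 4 (up to 0.0603). SEMA7A passed in 4 and was lost without control animals 2 or 4 or sGC animals 2 or 3 (up to 0.0906). EFNB3 passed in 3 and was lost without control animals 2 or 4 or sGC animals 2, 3 or 4 (up to 0.0719). EFNB2 passed in 2, those without control animal 1 or sGC animal 1, and was lost otherwise (up to 0.114). The number called ran from 0 without control animal 2 or 4 to 14 without control animal 1. In a single fit of all 8 groups, EFNB2 and SLIT3 kept their calls and EFNB3 (FDR 0.112), PLXNA4 (FDR 0.163) and SEMA7A (FDR 0.0541) lost them. In F2 females the number called was 0 without most animals, 1 without control animal 1 and 8 without sGC animal 2. These numbers called are given without a share of all genes.

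In F1 males SEMA6A, SEMA6D, NTN3, UNC5B, PLXNB3 and SEMA4C passed in all 11 fits. EFNB3 passed in 10 and was lost without control animal 4 (FDR 0.0520). SEMA4F passed in 7 and was lost without control animal 1 or sGC animals 2, 3 or 4 (up to 0.0565). PLXNA1 passed in 5 and was lost without control animals 3 or 4 or sGC animals 1, 3, 4 or 5 (up to 0.0990). SEMA3D passed in 3, those without control animal 5 or sGC animals 2 or 6 (otherwise up to 0.106).

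Whether the response to sGC differed between the sexes was tested as an interaction of treatment and table in the F1 animals. Males and females were listed in separate tables, at 25.7 to 31.8 M and 12.8 to 19.6 M reads a library. A difference between the sexes therefore cannot be told apart from one between these sets of libraries. The interaction passed for 19 of 58 guidance genes (32.8%), beside 31.7% of all genes. Of these 19, 17 had log2 fold changes of opposite sign, 9 of them positive in F1 females and negative in F1 males and 8 the reverse. Genes selected by the difference of 2 values tend to have opposite signs, and a reversal of sign was not itself tested. The likelihood ratio test called PLXNB3, PLXNB1 and UNC5B lower in F1 females and higher in F1 males at an FDR under 0.05. It called EPHA5 and NTN3 the other way round, and no guidance gene in both with the same sign. The paper also lists PLXNB3 as lower in F1 females and higher in F1 males. Some male values were close to 0, such as -0.10 for SLIT1 and for PLXNA4. NTN1 (males minus females 0.89, SE 0.11, FDR 3.69e-05), PLXNB1, SEMA3F, UNC5B, PLXNB3, SEMA4C, SEMA6A and SEMA6D were negative in females and positive in males. EPHA5 (-0.91, SE 0.12, FDR 5.03e-05), EPHA3, EPHA7, NTN3, SLIT1, SEMA3D, SEMA4F, PLXNA1 and PLXNA4 were positive in females and negative in males. SEMA5A and SEMA3E were positive in both and larger in females. The mature oligodendrocyte markers also differed in direction, with 0 of 10 positive in F1 females (median -0.72) and 10 of 10 higher in F1 males (median 0.95). The cortical glutamatergic sum was on average higher in sGC than control F1 females and lower in sGC than control F1 males. The part of these markers in the differences was not tested. The 15 of smallest p were held whichever animal was left out, except SEMA3D without F1 female sGC animal 2 (FDR 0.0526), and SEMA3D was also lost without F1 female control animals 1 and 4. The direction was shared by 23 of the 58 genes (39.7%), beside 34.7% of all genes, and Pearson's r of the log2 fold changes over the 58 genes was -0.24 (Spearman's rho -0.21), beside -0.33 over all genes. These values are across genes, which are not independent replicates.

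**Figure D4:**
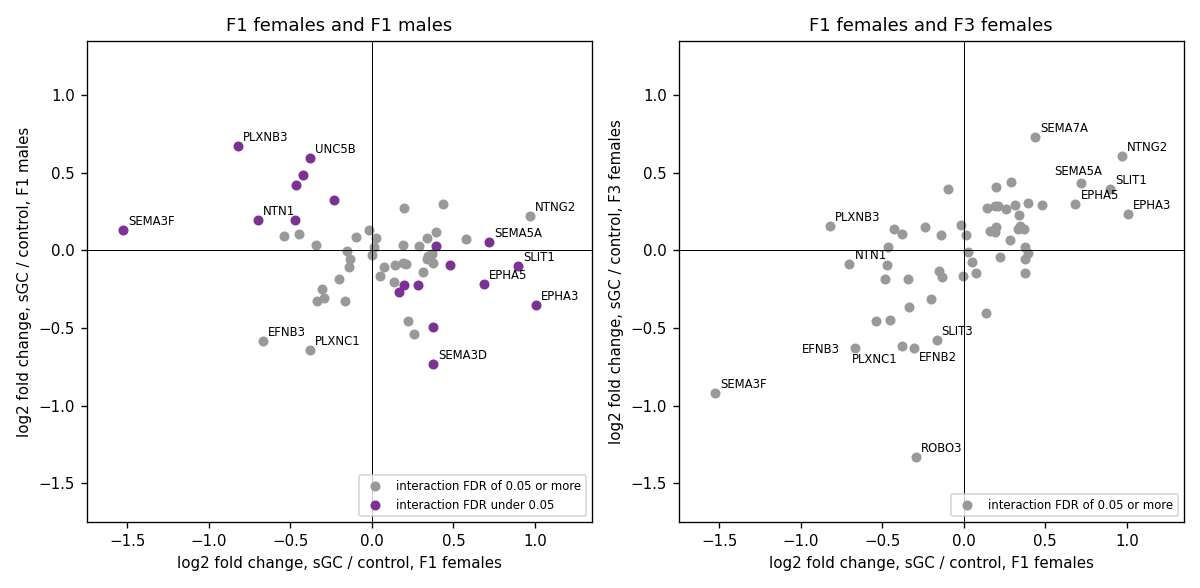
Log2 fold changes of sGC against control for the 58 guidance genes tested in both tables, F1 females on the x axes and F1 males (left) or F3 females (right) on the y axes, purple where the FDR of the interaction was under 0.05. In the left panel purple points lie mostly at the upper left and the lower right, and in the right panel 42 of 58 points have the same sign on both axes and none is purple.

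Between F1 and F2 females the response differed for 11 of 58 guidance genes (19%), beside 13.8% of all genes, and 10 of the 11 had opposite signs. Selection by the difference favours such signs here too, and a reversal was not itself tested. The likelihood ratio test called PLXNB3 lower in F1 females (FDR 0.0282) and higher in F2 females (FDR 5.73e-05), and SEMA5A higher in both. Some F2 values were close to 0, such as -0.03 for EPHA5 and 0.06 for PLXNB1. This comparison uses the same F1 females as that between the sexes. PLXNB3 differed by 1.67 (F2 minus F1, SE 0.34, FDR 0.0087), from -0.82 to 0.86, and EPHA5 by -0.72 (SE 0.13, FDR 0.0047), from 0.69 to -0.03. The mature oligodendrocyte markers lay in opposite directions here too (median -0.72 in F1 and 1.02 in F2 females). Upper cortical layer markers had medians of 0.18 in F1 and -0.83 in F2 females. The part of these markers was not tested. The other guidance genes that differed were PLXNB1, NTN1, UNC5B, SEMA3F, EPHA2 and EPHB4, with a positive difference, and PLXNA1, NTN3 and EPHA3, with a negative one. EPHA2 stood at 1.42, 1.76, 1.80 and 1.43 CPM in control F2 females and at 1.82, 2.69, 2.50 and 3.17 CPM in sGC F2 females, and at 3.62, 1.94, 2.005 and 2.76 against 1.37, 1.31, 2.01 and 2.45 CPM in F1 females. EPHB4, the receptor of ephrin-B2, had log2 fold changes of -0.45 in F1 and 0.28 in F2 females, neither past the threshold within its table. The EPHA2 interaction passed in 4 of the 16 fits that left out 1 animal, that of EPHB4 in 3 and that of EPHA3 in 12, the losses following the omission of animals of either generation. Without F1 female control animals 1 and 4 the count was 19, given without a share of all genes, and EPHA2 was no longer called.

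Between F1 and F3 females no guidance gene of 58 passed the interaction test of edgeR, beside 0.0981% of all genes. At an unadjusted p under 0.05 by that test there were 11 of 58, beside 1770 of 11212 genes. The likelihood ratio test and DESeq2 each called 2, and the quasi-likelihood test called 5 without F1 female control animals 1 and 4. These last counts are given without a share of all genes. The log2 fold changes had the same sign for 42 of the 58 genes (72.4%), beside 66.3% of all genes, and Pearson's r over the genes was 0.64 (Spearman's rho 0.66), beside 0.51 over all genes. In both tables, the striatal marker sum was lower and the cortical glutamatergic sum higher on average in sGC animals. In F3 females the striatal sums were 334 to 1019 CPM in controls and 208 to 475 CPM in sGC animals, and the glutamatergic sums 1977 to 2041 and 2478 to 2740 CPM. Their part in this likeness was not tested.

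Over all 4 tables, 16 of 57 guidance genes (28.1%) had the same sign of log2 fold change throughout, beside 18.7% of all genes. SEMA5A, SEMA7A, SEMA3A, SEMA4G, EPHB1 and NTNG2 were positive in each, and EFNB1, EFNB2, EFNB3, ROBO1, ROBO3, SLIT3, PLXNA3, PLXNC1, SEMA4B and NTNG1 were negative. These signs include values close to 0, such as 0.01 for SEMA4G and -0.0023 for SEMA4B in F1 females.

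Other genes of the guidance pathways were counted from a list of 63 receptors, ligands and intracellular effectors. In F1 females 10 of 55 tested rose and 4 fell, beside 9.21% and 7.33% of all genes. Among them PAK1 and LIMK1, kinases on the path from Rac to the actin-severing protein cofilin, rose from 222 ± 7.12 to 332 ± 13.6 CPM and from 154 ± 3.01 to 224 ± 19.7 CPM (SD, n = 4; log2 fold changes 0.58 and 0.54, FDR 0.0028 and 0.0039 by edgeR). CHN2, a Rac-inactivating chimaerin, fell from 66.2 ± 6.15 to 28.9 ± 6.54 CPM (SD, n = 4; -1.195, FDR 0.0040 by edgeR). DSCAM, a netrin co-receptor, rose from 52.6 ± 1.98 to 69.3 ± 2.95 CPM (SD, n = 4; 0.40, FDR 0.0045 by edgeR). In F2 females none of 55 passed, with 13 at an unadjusted p under 0.05 (beside 16.1% of all genes). The likelihood ratio test and DESeq2 each called 6, given here without a share of all genes.

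In F3 females 4 of 57 rose and none fell, beside 1.07% and 0.271% of all genes. Those that rose were VAV2 (0.49), a Rac activator downstream of Eph receptors, MICAL2 (0.73), a relative of the plexin effector MICAL1, LIMK1 (0.53) and NRP1 (0.51), the neuropilin of SEMA3A. In F1 males 5 of 55 rose and 4 fell, beside 5.74% and 3.48% of all genes. CNTN2, a cell adhesion molecule also found on myelinated axons and oligodendrocytes, rose by 0.74 (SE 0.16), and LRRC4C, a ligand of netrin-G1, fell by 0.29, L1CAM by 0.21 and RGMB, a ligand of neogenin, by 0.23 on the log2 scale, and each of these passed the quasi-likelihood test. The mature oligodendrocyte markers all rose in the same males, 10 of 10, and the part of this in the values of CNTN2, SEMA6A, UNC5B and PLXNB3 was not tested.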

How the data were processed

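RNA of medial prefrontal cortex punches from 35 guinea pigs was sequenced by the authors as 1 mRNA library per animal. For each of 4 groups (F1, F2 and F3 females, F1 males) the counts deposited by the authors give the whole number of reads for each gene symbol and are not normalized. The submitters' processing notes name TopHat2 and edgeR. The read counter, genome build, annotation and the filter that left the genes listed are not given in the sources used here, so reads shared by related genes may have been split or dropped. Columns with the authors' own comparisons (fold changes and p-values) were not used.

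The analysis of the counts used edgeR 4.0.16 and limma 3.58.1 under R 4.3.3. Genes were kept with filterByExpr (minimum count 10, minimum total count 15) and libraries scaled by TMM. Within a table, the sGC group was tested against the control group by edgeR's quasi-likelihood test, and the p-values were adjusted by Benjamini and Hochberg over all genes of a table, with a threshold of 0.05. Each SE was worked back from that test, as the absolute log2 fold change divided by the square root of the F statistic. The study's methods used the likelihood ratio test, which was run as an alternative. Interactions were tested for 3 pairs of tables over the genes listed in both. CPM are TMM-normalized, are not scaled by gene length and were not compared between genes, nor between tables except where said.

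The members and lists were chosen with earlier results of these data known, so no set test and no p-value over the members was computed. Genes were named when they passed within a table or, up to 15 for a pair, in an interaction. EPHA7, PLXNA4, SEMA5A and SEMA3E lay past that limit for the sexes and are named there so that all 19 are accounted for. From the pathway list the 4 genes of smallest p among those called in a table were named. Alternatives were the likelihood ratio test, DESeq2 1.42.0, RLE and upper-quartile scaling, no filter on low counts or 1 at CPM above 1, the replicate number as a block, all 8 groups in a common fit and the omission of each animal. The methods were tested on simulated data.

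Replicates of a group differed by more than sampling noise, and no library looked like a second copy of another. The SE of a gene within a table reflects the spread between animals of that table only. The labels do not say whether replicate numbers pair control with sGC animals. The deviations of same-numbered animals correlated between -0.33 and 0.37 over 17 pairs, 4 of them above 0.1, which does not settle it.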

Additional observations from a re-analysis of the deposited data

Results flagged for a closer look

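The levels of the 26 named genes were searched for an animal far from the rest of its group. Of 204 groups of 4 to 6 animals, 17 held an animal whose gap to its nearest neighbour was larger than Dixon's limit, and chance alone flags about 1 group in 20. F1 male sGC animal 6 stood apart for 4 genes, high in PLXNB1 (176 CPM), SEMA3E (59.2 CPM) and SEMA5A (338 CPM) and low in SEMA6D (187 CPM). The same animal had the highest astrocyte marker sum of the F1 males (8614 CPM). Among F1 males, control animal 1 was high in SEMA5A (328 CPM), control animal 3 was high in SLIT3 (107 CPM) and sGC animal 4 was high in EPHA2 (2.81 CPM). Among F1 females, sGC animal 3 was high in NTN1 (21.5 CPM) and NTN3 (123 CPM) and sGC animal 4 in EPHA5 (223 CPM). Among F2 females, sGC animal 1 was high in EPHA3 (4.83 CPM) and SLIT1 (183 CPM), sGC animal 3 was low in EFNB3 (39.5 CPM) and high in SEMA6D (215 CPM), and sGC animal 4 was low in SEMA6A (52.2 CPM). Among F3 females, sGC animal 1 was high in EFNB3 (80.8 CPM) and sGC animal 2 in NTN1 (26.9 CPM).

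The response to sGC differed between groups for 30 interactions tested with edgeR's quasi-likelihood test (FDR under 0.05), given here as differences of log2 fold changes. F1 males minus F1 females gave 0.89 for NTN1, 0.66 for PLXNB1, 0.55 for SEMA6D, 1.65 for SEMA3F, 0.97 for UNC5B, 1.49 for PLXNB3, 0.88 for SEMA4C and 0.90 for SEMA6A. It gave -0.91 for EPHA5, -0.52 for NTN3, -1.36 for EPHA3, -1.01 for SLIT1, -0.43 for SEMA4F, -0.88 for PLXNA1, -1.12 for SEMA3D, -0.58 for PLXNA4, -0.67 for SEMA5A, -0.44 for EPHA7 and -0.37 for SEMA3E. F2 females minus F1 females gave 0.52 for PLXNB1, 1.67 for PLXNB3, 0.66 for NTN1, 0.65 for UNC5B, 1.61 for SEMA3F, 1.19 for EPHA2 and 0.73 for EPHB4, and -0.72 for EPHA5, -0.87 for PLXNA1, -0.47 for NTN3 and -1.42 for EPHA3. The F1 females enter both sets.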

How the results depend on the processing

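The quasi-likelihood test of edgeR called fewer guidance genes than the likelihood ratio test and DESeq2 in each table. The counts of this section are given without the share of all genes called in the same setting. They are therefore not a result about guidance genes as a group. Counts that moved were 17 by DESeq2 and 26 by a single fit of all 8 groups against 10 in F1 females, 8 by the likelihood ratio test and 8 by DESeq2 against 0 in F2 females, 10 and 11 against 5 in F3 females (5 also in the single fit, only 2 of them the same genes), and 16 by the likelihood ratio test against 10 in F1 males. In F2 females 1 gene, PLXNB3, was called with RLE scaling, upper-quartile scaling, no filter, CPM above 1 or the replicate block. With the replicate block, 1 guidance gene was called in F3 females (EFNB3), 8 in F1 females and 13 in F1 males, pathway genes were 8 in F1 females and 1 in F2 females, and the semaphorin median in F1 males was -0.045. The labels do not say what the replicate numbers mark. Other counts of pathway genes that moved were 6 by the likelihood ratio test and 6 by DESeq2 in F2 females, 7 and 7 in F3 females, and 15 by DESeq2 and 4 by the single fit in F1 males. Interactions between F1 and F3 females were 2 by the likelihood ratio test, 2 by DESeq2 and 5 without F1 female control animals 1 and 4, and between F1 and F2 females 19 without those animals. Without them the F1 female medians of the Eph receptors, ephrins and Slits were 0.59, 0.035 and 0.62.

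With 1 animal left out, guidance genes called ran from 4 to 16 in F1 females (4 without sGC animal 1, 16 without control animal 1), 0 to 8 in F2 females, 0 to 14 in F3 females and 7 to 13 in F1 males. Pathway genes ran from 6 to 17, 0 to 8, 1 to 8 and 6 to 15, and interactions from 17 to 23 (sexes), 8 to 15 (F1 and F2 females) and 0 to 2 (F1 and F3 females). The F1 female medians ran from 0.20 to 0.43 for the Eph receptors, 0.092 to 0.22 for the semaphorins and -0.12 to 0.43 for the Slits (-0.12 without sGC animal 3), and the F1 male semaphorin median from -0.053 to 0.053. Ephrin medians ran from -0.33 to -0.13 in F2 and -0.23 to -0.052 in F3 females, and those of the netrin-Gs from 0.14 to 0.62 in F1 and -0.11 to 0.26 in F3 females.

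No call within a table changed sign under any setting tried. Signs turned for values that were not called, most of them near 0. In F1 females SLIT3 went from -0.17 to 0.19 without control animals 1 and 4. With the replicate block SEMA3E was 0.0088 in F3 females and -0.052 in F1 males and SEMA5A was -0.011 in F1 males, and with upper-quartile scaling SEMA4C was -0.0041 in F3 females. With 1 animal left out, F2 female values ran from -0.10 to 0.023 for EPHA5, -0.11 to 0.041 for NTN1, -0.11 to 0.019 for SEMA3D, -0.077 to 0.20 for SEMA3F and -0.025 to 0.11 for SEMA4C. F3 female values ran from -0.020 to 0.40 for EPHA3 (0.23 with all animals, -0.020 without sGC animal 3), -0.24 to 0.10 for SEMA3D, -0.12 to 0.17 for SEMA3E and -0.057 to 0.13 for SEMA4C. F1 male values ran from -0.068 to 0.16 for EPHA2, -0.053 to 0.070 for SEMA3E and -0.022 to 0.16 for SEMA5A. The cause of these changes was not tested, and leaving out an animal also leaves fewer animals in the fit. Of the calls within a table, SEMA3F (SE 0.32) and EPHA3 (SE 0.22) in F1 females had the largest standard errors.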

Other observations

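Some guidance genes stood at very different levels in the 4 tables, which were counted and normalized separately, so a difference in annotation or counting cannot be told apart from a difference in the animals. Of 57 guidance genes compared, 2 had a highest mean over the animals of a table that was more than 4 times the lowest (3.51%, beside 4.28% of 10554 genes). EPHA8, named here after its values were seen, averaged 8.90 CPM in F1 females, 8.96 CPM in F2 females, 71.7 CPM in F3 females and 97.5 CPM in F1 males. PLXNB3 averaged 26.6, 22.2 and 30.1 CPM in F1 females, F2 females and F1 males and 119 CPM in F3 females. Control and sGC animals of a table lay on the same side of these gaps.

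EPHB1, a receptor of B-class ephrins that is named here after its values were seen, was positive in all 4 tables, with log2 fold changes of 0.20, 0.47, 0.41 and 0.28 in F1, F2 and F3 females and F1 males. The last 3 had an unadjusted p under 0.05 and none passed the FDR threshold of edgeR's quasi-likelihood test. EFNB2 and EFNB3, ligands of that class, were negative in the same 4 tables. Of the other EphB receptors, EPHB3, EPHB4 and EPHB6 had mixed signs and EPHB2 was positive in each table that lists it. A link between these ligands and receptors was not tested.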
